A study of Vitis vinifera with 9 samples.

Results

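Detached leaves of grapevine before any UV-C irradiation are described here, by the signals of 3 control arrays out of the 9 arrays of the series. The 3 arrays were chosen by their labels, and 16436 of the 16601 probe sets on each array were ranked by mean signal and by the spread between the 3 arrays, with the 165 Affymetrix control probe sets left out. A probe set is a group of short probes against 1 transcript, and its signal is the intensity given by RMA, which adjusts the background, quantile-normalizes the arrays and combines the probes. Leaves of Vitis vinifera cultivar Hongbaladuo that were 30 days old were detached, and UV-C at 6 W per m2 was given to the lower leaf surface for 10 min. The control group was sampled at 0 h, before irradiation, and the other groups 6 h and 12 h after it, with 3 replicates of 6 leaves in each group and 1 array per replicate. All leaves, the control leaves included, came from 1 cultivar, stood with their petioles in water and were given 30 min of darkness at 25 °C, and no unirradiated leaves were taken at 6 h or 12 h, so that UV-C and the time since detachment cannot be told apart. The paper calls the replicates biological, each a pool of leaves, so a spread between the control arrays is a spread between pools of leaves as well as between hybridizations.

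A mature leaf harvests light in photosystem I and photosystem II of the thylakoid membrane, which receive their excitation energy from chlorophyll a/b-binding proteins and pass electrons through plastocyanin and ferredoxin. Carbon dioxide is then fixed by rubisco, and the oxygenation side reaction of rubisco is dealt with by photorespiration in the peroxisome and the mitochondrion. Grapevine leaves hold phenolic compounds as well, the flavonoids that start from chalcone synthase and the stilbenes that start from stilbene synthase, and stilbenes are known to accumulate after UV-C. Roles given below are those known from Arabidopsis and other plants, because most names rest on the Arabidopsis protein that the deposited annotation sets beside a probe set. The annotation grades this similarity as weak, moderate or strong, and a weak grade is not marked at every name below.

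Signals on the control arrays ran from 3.98 to 27313 on the linear scale, with medians of 115 to 117 per array, and the arrays correlated at 0.988 to 0.992 across probe sets on the log2 scale. The median SD between the 3 arrays was 0.15 on the log2 scale, with quartiles of 0.091 and 0.24. The 18 probe sets of hybridization spikes, transcripts added in the laboratory, had a median SD of 0.083. An SD from 3 arrays is itself imprecise, with a 95% interval from 0.521 to 6.28 times its value under a normal distribution. The ratio of 3' to 5' signal, a sign of RNA length, was 21.6, 28.2 and 20.6 for actin and 4.15, 4.67 and 4.25 for GAPDH on replicates 1, 2 and 3. Replicate 2 had the highest of both ratios and replicates 1 and 3 lay close together. The deposited annotation listed 10471 of the 16436 probe sets, with a median signal of 348, while the 5965 others had a median of 11.7, and 4170 of those listed had a usable name.

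The markers of leaf mesophyll were bright, while lists for other organs were not all dim. All 22 mesophyll markers (rubisco small subunit, rubisco activase and chlorophyll a/b-binding proteins) were among the brightest 5% of probe sets, with a median of 13.42 on the log2 scale and signals from 3570 to 20990. The 17 markers of epidermis and cuticle had a median of 11.15, the 8 of phloem 8.63 and the 12 of xylem 8.23. All 12 xylem markers were cellulose synthase or cellulose synthase-like probe sets, RSW1, IRX3 and Ath-A among them. That list thus describes cellulose synthases and not xylem alone. The 1 seed marker had 7.17 and the 9 of flower and pollen a median of 8.81, against 6.85 for all probe sets. The 29 of ripening berry had a median of 9.52, with 8 in the brightest 5%. By median, the berry and flower lists were thus above the phloem and xylem lists, which did not separate leaf from other organs. The mesophyll list and the epidermis and cuticle list lay above the berry, flower and seed lists. Of the epidermis and cuticle list, 7 of 17 were in the brightest 5%. The flower median of 8.81 was the value of a probe set named probable apetala2 domain TINY (LOC100257386). Its name shares a word with the apetala genes, so it may not be a flower marker. The putative vicilin storage protein gave 134, 170.1 and 132 on replicates 1, 2 and 3, agamous AG 294, 319 and 233 and apetala1 AP1 88.0, 133 and 117. Of the flower and pollen list, 2 of 9 were in the brightest 5%, a pollen allergen-like protein (LOC100243241), named on weak similarity, at 1699, 2358 and 5672 and LOC100249884, titled as similar to pathogenesis-related protein 10, at 3599, 4507 and 2114. No probe set name matched the guard cell markers, so guard cells were not checked. In bulk leaves, fewer cells of a type and less RNA per cell cannot be told apart. A probe set's signal also depends on its own probes, so the order of signals below is not an order of transcript amounts.

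Proteins of the photosystems, their antennae and electron carriers supplied most of the brightest named probe sets. The 25 brightest probe sets of all reached down to 16462, with the next at 16414, and 19 of them had a name. The 100 brightest reached down to 10430, with the next at 10310, and held 22 photosystem and light-harvesting probe sets and 10 of carbon fixation and photorespiration. Among the 25 brightest with different names, photosystem II 10 kDa polypeptide (LOC100243967), a small protein near the oxygen-evolving complex, gave 24027, 24402 and 23909 on replicates 1, 2 and 3, an SD of 0.015 on the log2 scale. The PSII 32 kDa protein (LOC100264988), the D1 reaction centre protein, gave 20769, 24508 and 24693, with replicate 1 lowest and an SD of 0.14. Its other probe set had a mean signal of only 624. Chlorophyll a/b-binding proteins of photosystem II (LOC100246867) gave 21004, 20431 and 21549.8 and CP29 (LOC100266604), an inner antenna protein, 18789, 16595 and 16501. No array stood apart for these antenna proteins, whose highest and lowest signals differed by less than 1.2-fold.

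**Figure D1:**
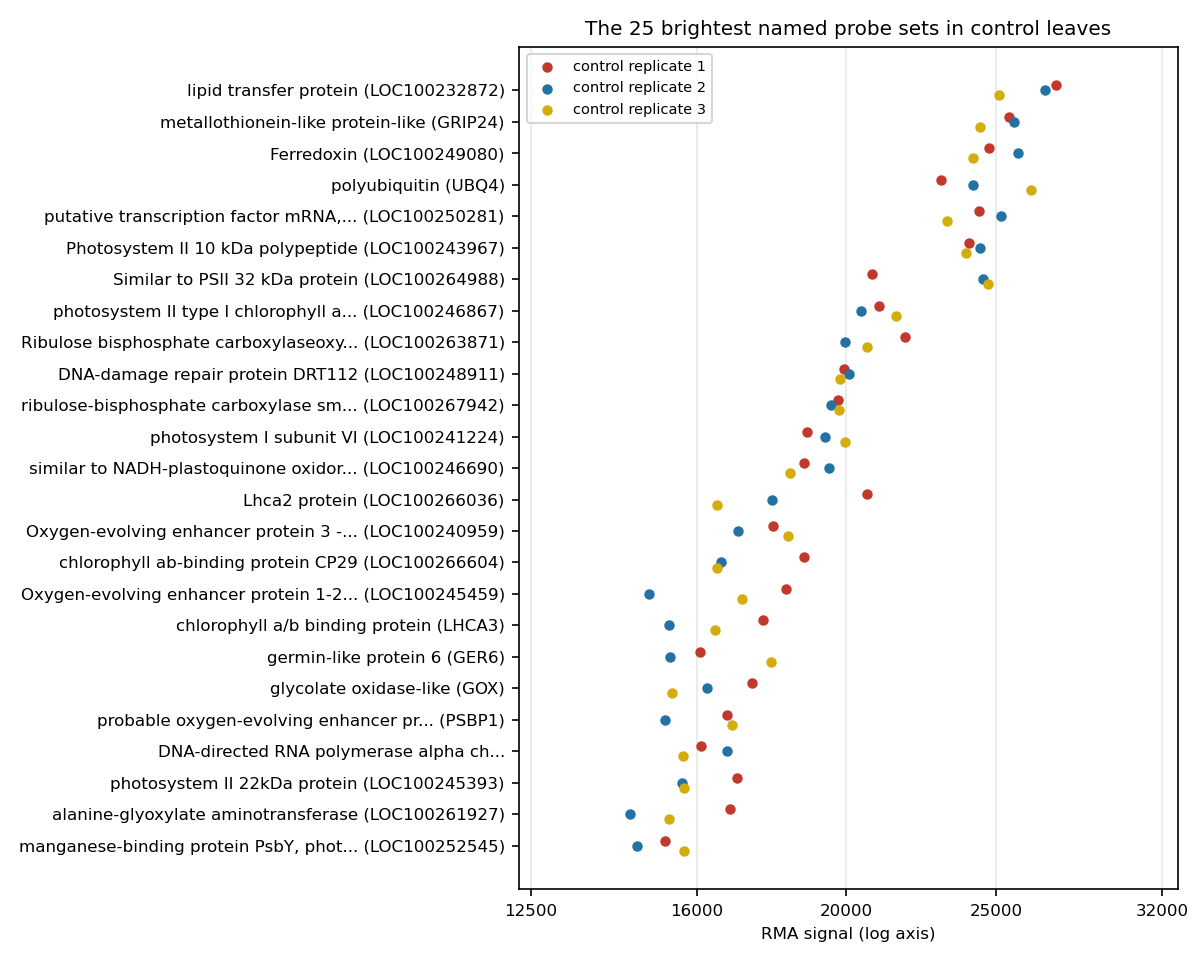
RMA signal (log axis) of the 25 brightest named probe sets on the 3 control arrays, 1 point per array, ordered by mean signal. The points of 1 probe set lie close together, from 27313, 26877 and 25107 for lipid transfer protein at the top to 15274, 14639.8 and 15703 for PsbY at the bottom.

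Photosystem I subunits reached the same range of signals. Subunit VI (LOC100241224), a peripheral subunit, gave 18861, 19362 and 19946, while the antenna protein Lhca2 (LOC100266036) gave 20622, 17892 and 16491 and LHCA3 17659, 15367 and 16438. Lhca2 and LHCA3 were both highest on replicate 1, with SDs of 0.16 and 0.10. On the photosystem II side, the extrinsic proteins around the manganese cluster were bright too, with oxygen-evolving enhancer protein 1 (LOC100245459) at 18294, 14903 and 17127. Enhancer protein 2 (PSBP1) gave 16751, 15266 and 16872 and enhancer protein 3 (LOC100240959) 17940.5, 17015 and 18333. All 3 were lowest on replicate 2. The 22 kDa protein (LOC100245393), needed in Arabidopsis to dissipate excess light energy, gave 16997, 15659 and 15708.

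The soluble electron carriers on both sides of photosystem I had small spreads. Ferredoxin (LOC100249080), which takes electrons from photosystem I, gave 24731, 25814 and 24138 and had rank 3 of all probe sets. The probe set named DNA-damage repair protein DRT112 (LOC100248911), on weak similarity, gave 19931, 20084 and 19799.9, an SD of 0.010. DRT112 of Arabidopsis is a plastocyanin, the carrier that feeds photosystem I. The name NADH-plastoquinone oxidoreductase subunit K (LOC100246690) belonged to 18777, 19486 and 18401, although the annotation of the same probe set also describes an ATP synthase beta subunit. None of the 45 photosystem and light-harvesting probe sets had an SD of at least 0.5, their median SD was 0.10, and 40 of the 45 were among the brightest 5%. The dimmest of them was a photosystem II protein D2 probe set (LOC100258801) at 215, 227 and 301.

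The small subunit of rubisco and the regulator of the enzyme led the carbon fixation list. Rubisco activase (LOC100263871), which frees rubisco of bound sugar phosphates, gave 21821, 19949 and 20622 and the rubisco small subunit (LOC100267942) 19765, 19551 and 19797, an SD of 0.0098. The large subunit, encoded in the chloroplast, was read by 1 probe set (LOC100247906) at 2059.8, 1529 and 2169. In the Calvin cycle, sedoheptulose-bisphosphatase (LOC100260169), which regenerates the acceptor of carbon dioxide, gave 13304, 12321 and 13224 on 1 probe set. Its other probe set gave 7056, 5135 and 6602, and phosphoribulokinase (LOC100244092), the last step of that regeneration, 12022, 11078 and 11436. Photorespiration was represented by glycolate oxidase (GOX), the peroxisomal enzyme that makes hydrogen peroxide, at 17383, 16262 and 15429. Alanine-glyoxylate aminotransferase (LOC100261927) and hydroxypyruvate reductase (LOC100262344), which act before and after the mitochondrial steps, had SDs of 0.11 and 0.067, with 16808, 14498 and 15355 for the former. The reductase gave 13033, 12392 and 13605. These enzymes of glycolate breakdown were lowest on replicate 2 or 3, within 1.2-fold of their highest signal. Among 36 probe sets of the list, 20 were in the brightest 5%. The single one of the 36 with an SD of at least 0.5 was a glycine dehydrogenase (LOC100266280) at 93.4, 95.3 and 182, where replicate 3 stood above the others. A fructose-bisphosphatase, named on weak similarity, did not match the search words and lay outside the list. It gave 759, 619 and 151 on 1 probe set and 332, 229 and 68.6 on another. Their SDs were 1.27 and 1.19, so the count of the list does not cover every enzyme of its pathways.

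Outside photosynthesis, the brightest probe set of all was a lipid transfer protein (LOC100232872), a small secreted protein of the cuticle and cell wall, at 27313, 26877 and 25107. A metallothionein-like protein (GRIP24), from a family of small metal-binding proteins, came second at 25482, 25674 and 24405, and polyubiquitin (UBQ4), the tag for protein breakdown, gave 23019.8, 24142 and 26324. A putative transcription factor (LOC100250281), so named by its sequence record alone, gave 24366, 25185 and 23248, and germin-like protein 6 (GER6), a cell wall protein, 16093, 15379 and 17869.6. The lipid transfer protein and the metallothionein were lowest on replicate 3, while polyubiquitin and GER6 were highest there. The 100 brightest probe sets carried 14.3% of the summed signal and the 500 brightest 37.9%. All 100 brightest probe sets were in the annotation, against 1 of the 100 dimmest.

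The gene lists were then set against all 10471 annotated probe sets, whose median log2 signal was 8.44. Of the 19 lists, 15 had a median above that. Antioxidant and redox proteins came after photosynthesis, with a median of 11.25 over 48 probe sets, 21 of which were in the brightest 5%. They included an M-type thioredoxin (LOC100264263) of the chloroplast at 12165, 11706 and 11549 and a 2-cys peroxiredoxin (LOC100259748), which removes hydrogen peroxide, at 10268, 8777 and 10275. A Cu/Zn superoxide dismutase (LOC100233100), which turns superoxide into hydrogen peroxide, gave 8217, 8334 and 10036. The thioredoxin was highest on replicate 1 and the superoxide dismutase on replicate 3.

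**Figure D2:**
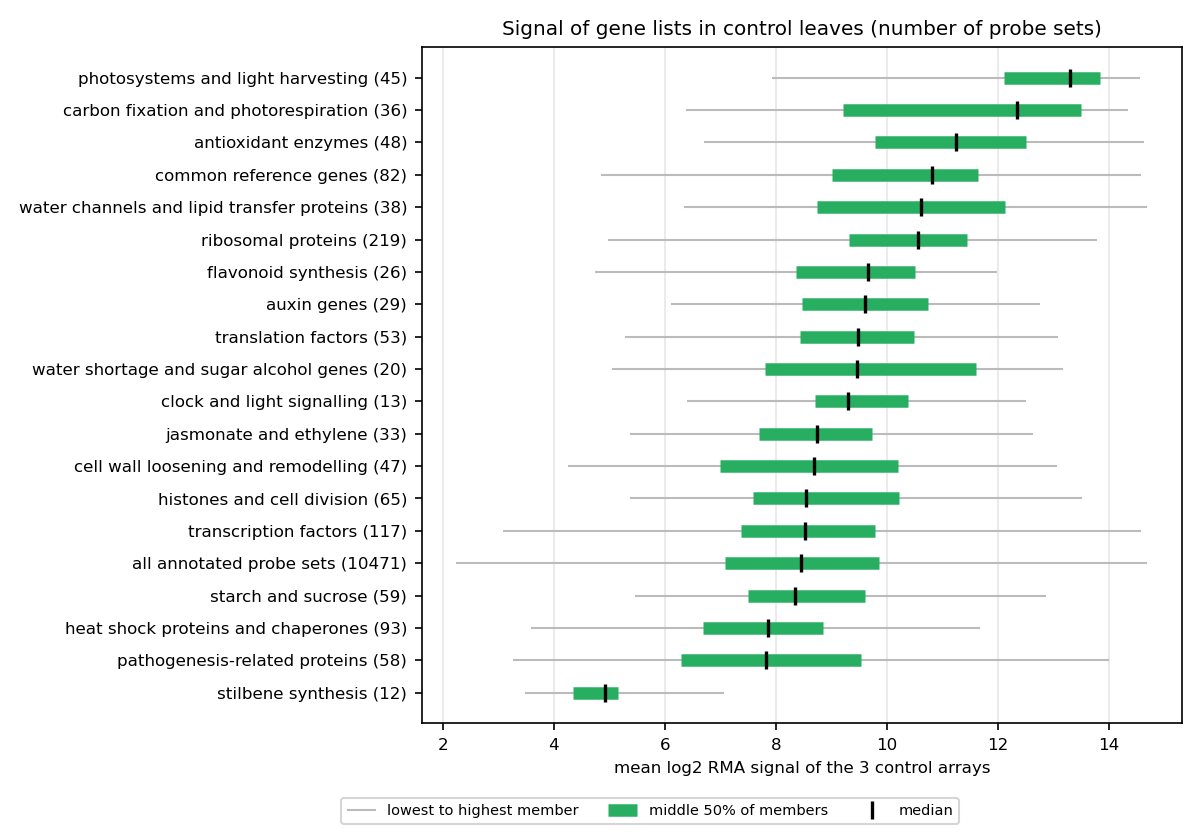
Mean log2 RMA signal of the 3 control arrays for each gene list, with the median as a black tick, the middle 50% of members as a green bar and the lowest to highest member as a grey line. The photosystem list has the highest median (13.30) and the stilbene list the lowest (4.93).

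Common reference genes had a median of 10.81 over 82 probe sets and the 219 ribosomal protein probe sets one of 10.57, with SDs of at least 0.5 in 2 and in 0 of them. Ribosomal proteins moved together in a small way, since 139 of those 219 were lowest on replicate 1 and 117 were highest on replicate 3, by median deviations of -0.11 and 0.073 from the mean. Over all probe sets with a mean log2 signal of at least 6, 3395 of 9511 were lowest on replicate 1 and 3415 were highest on replicate 3. The brightest ribosomal probe set was a chloroplast 50S protein (LOC100261430) at 13780.3, 13985 and 14391 and the dimmest 60S L30 (LOC100263161) at 31.2, 37.9 and 26.0.

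Auxin genes, clock and light signalling genes and genes of water shortage had list medians of 9.61, 9.30 and 9.45, above the median of annotated probe sets. Auxin-responsive IAA16 (LOC100250231), a repressor of auxin responses that is degraded when auxin is bound, gave 6507, 6568 and 7650.4 and IAA7 (LOC100254530) 5931, 6699 and 6032. Replicate 3 was highest for IAA16 and replicate 2 for IAA7. A CONSTANS-like zinc finger protein (LOC100248114), of a family that acts in day length and light responses, led the clock list at 5808, 5976 and 5649. Cryptochrome 1, a blue light receptor, gave 2921, 2626 and 2617 and GIGANTEA (LOC100254197), a clock protein, 298, 280.4 and 181. GIGANTEA was lowest on replicate 3 and had the largest SD of the 13 probe sets of that list, 0.39.

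Galactinol synthase (LOC100260266), which makes the first precursor of raffinose sugars, gave 11385, 9529 and 7069. RD22-C, named after a gene that responds to dehydration in Arabidopsis, gave 8010.2, 10032 and 8490.1, and an RD22-like protein (LOC100233124) 9718, 9652 and 7263. Galactinol synthase and the RD22-like protein were lowest on replicate 3 and RD22-C on replicate 1. A dehydrin (LOC100232959), a protective protein of dry tissue, was near the low end at 43.4, 40.6 and 20.3. Water channels were split by family member, with PIP1;3 at 11631, 10415 and 13663, PIP2;1 at 7117, 6522 and 5061 and the vacuolar TIP2;1 at 4579, 4125 and 4836, while 1 probe set of PIP1;1 gave 70.6, 92.9 and 82.1. Histones, the proteins that pack DNA, were bright for 1 histone H3 probe set (LOC100259723 and other loci) at 11432, 11741 and 12065. The 6 histone H4 probe sets taken as markers of dividing cells had a median of 10.65 and were all lowest on replicate 1.

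Stilbene synthesis had the lowest median of the lists. Stilbene synthases, which make resveratrol from the same substrates as chalcone synthase, were read by 12 probe sets with signals of 11.1 to 133 and a median of 4.93 on the log2 scale. A probe set for stilbene synthase 2 and other loci was the brightest at 152, 149 and 105, and stilbene synthase 4 (LOC100241891) gave 48.0, 56.7 and 31.5. Replicate 3 was the lowest for both. Of the 12, 1 had a mean log2 signal of at least 6, 3 were in the dimmest 25% and none was in the brightest 5%. Of the 58 pathogenesis-related probe sets, 2 were in the dimmest 25% and 7 in the brightest 5%.

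The 10 dimmest named probe sets had mean signals of up to 10.4. The WRKY-type DNA-binding protein 1 (LOC100232957), of a family of defence regulators, gave 9.90, 8.14 and 7.51 and MYB14, a known activator of stilbene synthase genes in grapevine, 10.4, 8.48 and 11.1. No array was highest for all of them. Pathogenesis-related protein 10.3 (PR10.3) gave 9.21, 12.3 and 7.84, a phloem-specific lectin 10.7, 10.4 and 9.16 and a mannitol dehydrogenase (LOC100247559), a name that rests on moderate similarity, 11.8, 10.3 and 9.31. A 17.6 kDa heat shock protein (LOC100261583) was the dimmest of the 93 heat shock and chaperone probe sets at 12.8, 12.4 and 11.1. The 100 dimmest probe sets of all had mean signals of 4.36 to 5.22, with the next also at 5.22, and only 1 of them was in the annotation. The dimmest 25%, 4109 probe sets at up to 16.9, held 106 annotated probe sets, 31 of them named. At such signals the order of probe sets cannot be read as an order of expression.

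Genes of 1 list could lie far apart, and so could probe sets of 1 gene. For 1131 genes with several probe sets, the brightest and dimmest of them differed by a median of 3.22-fold, and by at least 2-fold in 783 genes (69.2%). Glutamine synthetase GS, which binds ammonium into glutamine, was read at mean signals of 47.2 to 8411 by 4 probe sets, and LOC100232872, the lipid transfer protein at the top of the ranking, at 4282 to 26415. The brightest reading of a gene was therefore often several times its dimmest on the same arrays.

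The spread between the control arrays was small for most probe sets and large for a few. Of 9511 probe sets with a mean log2 signal of at least 6, 3782 differed by less than 1.2-fold between the highest and lowest array, 634 by at least 2-fold, and 710 (7.47%) had an SD of at least 0.5. By signal, the median SD was 0.11 below 4, 0.18 from 4 to 8 and 0.11 above 12 on the log2 scale. The count of 710 fell to 430 without replicate 3 and was 996 without replicate 2. The 100 largest SDs started at 1.13, with the next at 1.12, and 77 of these 100 probe sets were highest on replicate 1, 20 on replicate 3 and 3 on replicate 2.

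**Figure D3:**
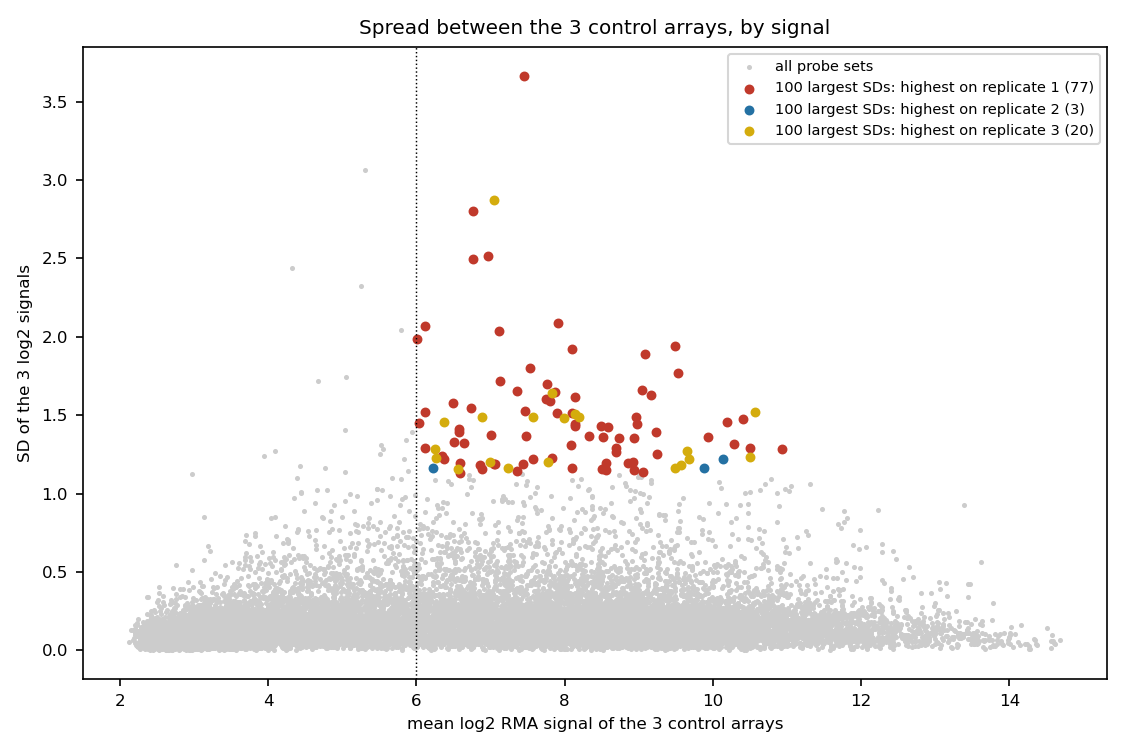
SD of the 3 log2 signals (vertical axis) against their mean (horizontal axis) for every probe set in grey, with the 100 largest SDs above a mean of 6 (dotted line) coloured by the array on which they were highest. Most coloured points belong to replicate 1 (77), fewer to replicate 3 (20) and replicate 2 (3).

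Of the 77 probe sets that were highest on replicate 1, 5 belonged to the transcription factor list, 2 each to the pathogenesis-related and the jasmonate and ethylene lists, and 0 to the flavonoid list. A putative AP2 domain transcription factor (LOC100247370), of a DNA-binding family that includes ethylene and drought regulators, gave 1020.2, 30.7 and 41.1 on replicates 1, 2 and 3, the largest SD of any named probe set, 2.80. A C2H2-type zinc finger protein (LOC100265533) gave 609.7, 75.7 and 94.4 and the salt-tolerance zinc finger protein (LOC100250659) 3706, 623 and 1326. In all of them replicate 1 stood more than 2-fold above the others, which were closer to each other. ATAF1 (LOC100261123), a NAC transcription factor of stress responses, gave 1254, 239 and 254, a factor like TINY (LOC100263585) 194, 38.3 and 44.8, and an ethylene response factor 4-like protein (LOC100247649) 3289, 439 and 1096. These too were highest on replicate 1.

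Single genes of other families, named for their large SDs, were also highest on replicate 1. A calcium-binding protein (LOC100249271) gave 1997, 219 and 439, a harpin-induced protein-like gene (LOC100247789), of a family linked to membrane-based defence, 771, 108 and 119, and a probable wound-induced protein (LOC100256196) 797, 45.8 and 35.3. A phi-1-like phosphate-induced protein (LOC100264214) gave 2840.1, 193 and 668, a xyloglucan endoglucanase (LOC100263324), an enzyme of cell wall loosening, 296, 16.8 and 66.6, and the stress-induced SIUP1 922, 144 and 157. In each case replicate 2 or 3 was the lowest and replicate 1 at least several-fold higher. A glutaredoxin (LOC100247528), a small thiol oxidoreductase, gave 1832, 337 and 349.9 and a RING zinc finger protein (LOC100253381), of a family of ubiquitin ligases, 1081, 157 and 276. Other genes differed between all 3 arrays. The thaumatin-like protein VVTL1 (LOC100232841), a pathogenesis-related protein, gave 601, 327 and 65.6. A branched-chain amino acid aminotransferase (LOC100247990), a name that rests on weak similarity, gave 458, 246 and 17.2.

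The families of these genes were not all highest on that array. By name, 4 of 6 wound-induced proteins, 10 of 16 ethylene response and AP2 factors and 16 of 32 calcium and calmodulin proteins were highest on replicate 1, against 2855 of 9511 over all probe sets with a mean log2 signal of at least 6. The counts were 2 of 17 for protein phosphatases 2C, 7 of 24 for MYB factors, 2 of 6 for WRKY factors, 4 of 12 for thaumatin-like proteins and 25 of 62 for zinc finger proteins. These word groups were chosen after their values were seen. The WRKY count takes only probe sets with that word in the deposited annotation and is incomplete. LOC100264507, LOC100263619 and LOC100246612, which the paper lists as probable WRKY factors, were outside it. All of them were among the 100 largest SDs and highest on replicate 1, and other WRKY probe sets of the paper were not looked up. In the gene lists, 28 heat shock and chaperone probe sets were highest on replicate 1 and 33 on replicate 3, and 15 and 23 of the pathogenesis-related ones. Of the 33 jasmonate and ethylene probe sets, 30 passed that floor, 12 of the 30 had an SD of at least 0.5 and 12 were highest on replicate 1. Allene oxide synthase (LOC100267750), the first committed step of jasmonate synthesis, differed little between arrays at 190.1, 154 and 132, and lipoxygenase LOXO, which makes its substrate, gave 149, 41.1 and 57.5. Cell type markers also differed between the arrays. On replicate 1 the median deviation from the mean was 0.095 for mesophyll, -0.036 for epidermis and -0.089 for phloem. It was -0.095 for the cellulose synthases taken as xylem markers and -0.32 for dividing cells. Beside these, it was 0.049 for calcium and calmodulin proteins, 0.089 for jasmonate and ethylene and 0.22 for ethylene response and AP2 factors. The part of cell composition or RNA length in the spread was not tested.

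**Figure D4:**
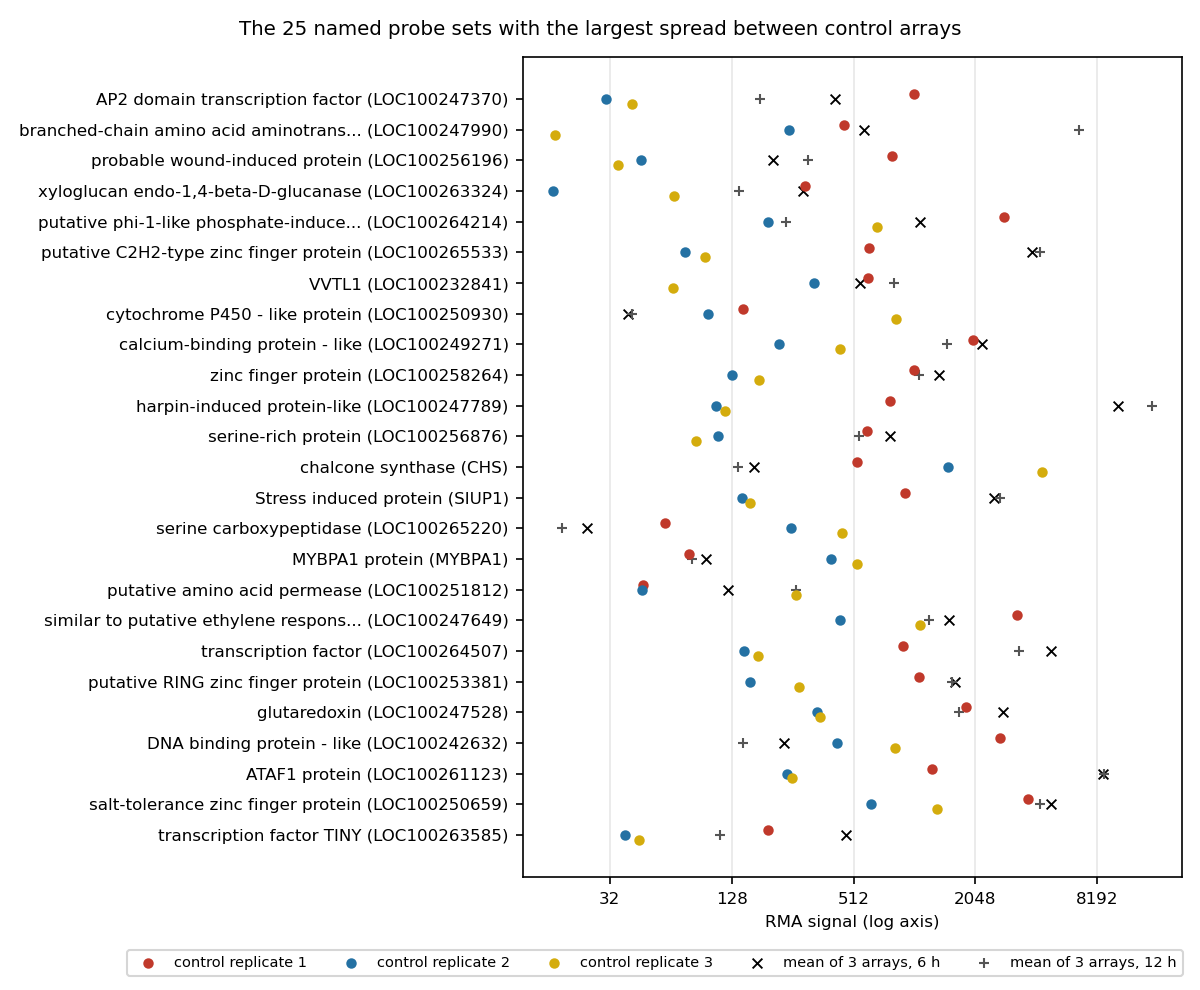
RMA signal (log axis) of the 25 named probe sets with the largest SD on the control arrays, with 1 coloured point per control array and the means of the 3 arrays at 6 h (cross) and 12 h (plus). Most probe sets have replicate 1 (red) on the right, as the C2H2-type zinc finger protein does with 609.7, 75.7 and 94.4 on replicates 1, 2 and 3.

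Flavonoid synthesis led the group that was highest on replicate 3. Chalcone synthase CHS, the entry enzyme of the pathway, gave 529.9, 1506 and 4376 on 1 probe set and 594, 1582 and 3278 on another, SDs of 1.52 and 1.24. CHS3 gave 336, 886 and 1822 and a further chalcone synthase (LOC100263698), named by its sequence record, 2837, 3425 and 6672. Replicate 1 was the lowest and replicate 3 the highest in all 4. Flavanone 3-hydroxylase F3H, which follows chalcone isomerase, gave 329, 683 and 1651, leucoanthocyanidin dioxygenase LDOX, which makes anthocyanidins, 312, 928 and 1788, and flavonoid 3'5' hydroxylase F3'5'H, which sets the blue to red branch of anthocyanins, 2100.2, 3319 and 6717. MYBPA1, a grapevine regulator of proanthocyanidin synthesis, gave 79.2, 394 and 534, and was likewise lowest on replicate 1.

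Not every step shared the pattern. Of the 26 flavonoid probe sets, 25 passed the floor and 12 of them had an SD of at least 0.5, of which 11 were highest on replicate 3 and 11 lowest on replicate 1. Leucoanthocyanidin reductase LAR2, of the proanthocyanidin branch, gave 1794, 1783 and 1252 on 1 probe set and 1164, 1311 and 1183 on another. Flavonol synthase (LOC100232938), of the flavonol branch, gave 840.2, 1239 and 991. The first was lowest on replicate 3, and the others were highest on replicate 2. A flavonol glucosyltransferase (LOC100246482), which attaches sugar to finished flavonols, gave 2956, 2443 and 2334 and was highest on replicate 1. Outside the pathway, a cytochrome P450 (LOC100250930) gave 146, 97.3 and 828 and a serine carboxypeptidase (LOC100265220) 60.3, 252 and 448. An amino acid permease (LOC100251812), a membrane carrier, gave 46.6, 46.2 and 267, and all of these were highest on replicate 3.

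**Figure D5:**
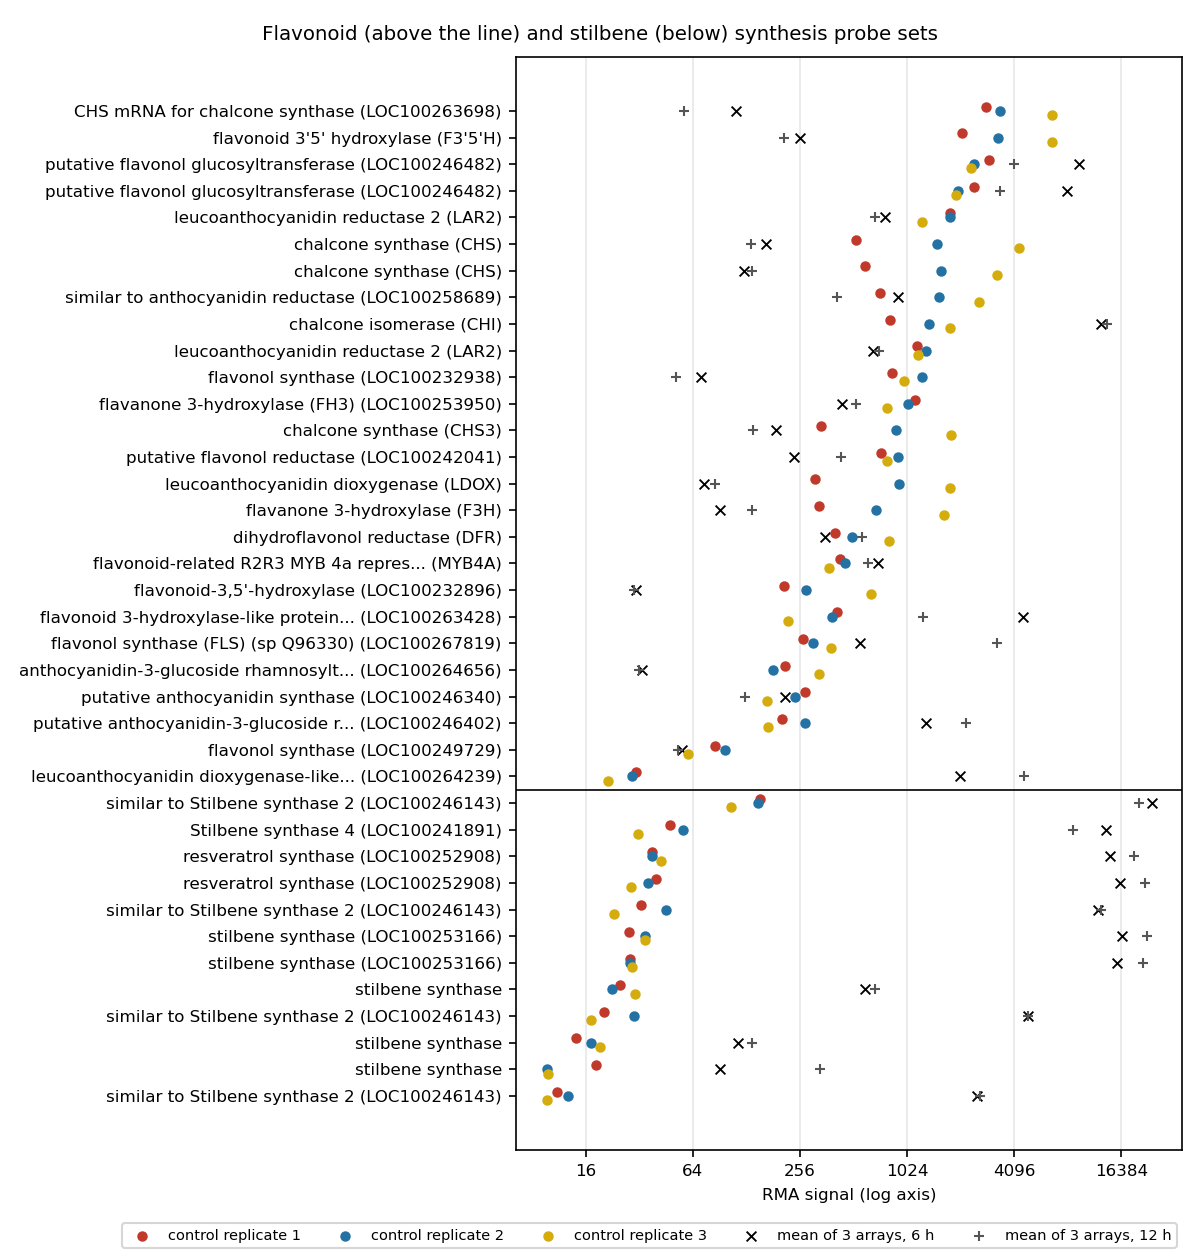
RMA signal (log axis) of the 26 flavonoid probe sets (above the line) and the 12 stilbene probe sets (below), with 1 coloured point per control array and the means at 6 h (cross) and 12 h (plus). Chalcone synthases spread from replicate 1 on the left to replicate 3 on the right (529.9, 1506 and 4376 for CHS), and stilbene synthases sit at the left with all treated means far to their right.

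By list, pathogenesis-related proteins had the largest share of variable probe sets next to flavonoid synthesis, with SDs of at least 0.5 in 20 of the 48 that passed the floor. The counts were 12 of 30 for jasmonate and ethylene, 23 of 108 for transcription factors, 10 of 43 for cell wall enzymes, 12 of 55 for starch and sucrose and 12 of 83 for heat shock proteins and chaperones, against 710 of 9511 in all. They were 0 of 51 for translation factors, 0 of 13 for clock and light signalling and 2 of 29 for auxin genes. A putative DnaJ protein (LOC100241895), named on weak similarity to a partner of heat shock protein 70, gave 226, 43.3 and 91.0 and a histone H3 (LOC100258688) 148, 353 and 377, the former highest and the latter lowest on replicate 1.

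The largest SDs of all belonged to a pair of probe sets without a name. The first gave 3274, 40.3 and 40.1 on the control arrays, 3062, 3512 and 41.9 at 6 h and 24.3, 31.2 and 31.3 at 12 h. It was thus high on replicate 1 of the control and replicates 1 and 2 at 6 h and low on the 6 remaining arrays. The second gave 17.7, 138 and 947 on the control arrays and 7.71, 39.2 and 32.9 at 6 h, and was highest on replicate 3 of the controls. Both were picked after their values were seen.

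At the other end, a few regulators and housekeeping proteins were nearly identical on the 3 arrays. An Aux/IAA protein (LOC100232909) gave 3046, 3056 and 3049, an SD of 0.0025, an M-type thioredoxin (LOC100252295) 367, 365 and 366, and 40S ribosomal protein S17 (LOC100246478) 654, 650.2 and 652. Their 3 signals differed by less than 1.2-fold, as did those of a putative calmodulin (LOC100260241), a calcium sensor, at 328, 328 and 329.8. Actin ACT1, used in the study for quantitative PCR, gave 7329.6, 7698 and 7700.4, an SD of 0.041. With 3 arrays, an SD this small among 9511 is a low extreme and not a measure of how stable a transcript is. The SDs of the treated groups, which the ranking did not use, tell how far the spread recurred. The 100 most variable probe sets of the control leaves had a median SD of 0.25 among the 6 h arrays and 0.20 among the 12 h arrays, against 0.13 and 0.15 for all 9511.

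The control signals were then compared with those after UV-C. A probe set was called when its adjusted p from limma, over all 16436 probe sets, was under 0.05 and its change at least 2-fold. At 6 h, 11.9% of all probe sets were called higher and 14.7% lower than the control, 26.6% in either direction, and at 12 h 14.7% were called higher and 17.5% lower, 32.2% in either direction. The comparisons share the 3 control arrays, and the rankings used those arrays too, so that the counts below describe where bright, dim and variable probe sets went and are not tests of the groups.

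Bright probe sets mostly held or lost signal. None of the 100 brightest was called higher at either time, while 27 were called lower at 6 h and 62 at 12 h, with median log2 changes of -0.57 and -1.36. Of the 500 brightest, which reached down to 3976 with the next at 3969, 9 were higher and 191 lower at 6 h, and 13 higher and 279 lower at 12 h. The probe set named DRT112 changed by -1.06 ± 0.11 at 6 h (limma adjusted p = 2.46e-05) and -2.23 ± 0.11 at 12 h (adjusted p = 9.91e-08). Both changes are on the log2 scale with the standard error from limma after ±. Centring each array on its median, which moved all log2 changes up because the array medians differed from the control by -0.13 at 6 h and -0.14 at 12 h, left DRT112 at -0.92 at 6 h, under the 2-fold threshold. PsbY (LOC100252545), a small protein of photosystem II, changed by -2.19 ± 0.14 at 6 h (limma adjusted p = 7.30e-07) and -3.72 ± 0.14 at 12 h (adjusted p = 1.62e-08). Its signals were 3646, 2925 and 3486 at 6 h and 1288, 1254 and 949 at 12 h, below all control signals. LHCA1 had on 1 of its 3 probe sets 5760.3, 4529.9 and 5068 in the control, with a mean of 131 at 12 h, a change of -5.28 ± 0.19 (limma adjusted p = 1.59e-08).

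Members of photosynthesis did not all lose signal by 2-fold or more. In the photosystem list, 19 of 45 were called lower at 6 h and 34 at 12 h, with 0 and 1 called higher, and in carbon fixation and photorespiration 18 and 24 of 36 were lower, with 0 and 1 higher. Photosystem II 10 kDa polypeptide changed by -0.044 ± 0.084 and -0.32 ± 0.084 and rubisco activase (LOC100263871) by -0.064 ± 0.088 and -0.55 ± 0.088. Rubisco small subunit (LOC100267942) changed by -0.050 ± 0.085 and -0.24 ± 0.085 on the probe set with a mean control signal of 19704. The 3 probe sets of that locus ran from 10167 to 21159, and the changes of the others are not given. None of the changes printed here was called, because all were under 2-fold. At 12 h their limma adjusted p-values were 0.00763, 3.75e-04 and 0.0351 in the order given, so these were small losses. A second rubisco activase locus (LOC100266698), at 7356, 5196 and 6293 in the control, changed by -1.79 ± 0.31 and -3.98 ± 0.31, and was called at both times.

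Bright probe sets outside photosynthesis changed in both directions. Lipid transfer protein LOC100233106 had 15372, 16228 and 8043 in the control, lowest on replicate 3, and changed by -2.42 ± 0.33 at 6 h and -6.74 ± 0.33 at 12 h (limma adjusted p = 8.12e-08), the lowest change at either time among the named of the 500 brightest. A thaumatin-like protein (LOC100247111) with 4456, 4432 and 4205 and a pathogenesis-related protein (LOC100256515) with 9047, 9738 and 10127 changed by -5.54 ± 0.18 and -5.46 ± 0.15 at 12 h, both called lower. These members of defence families were thus bright before irradiation. In the upward direction, polyubiquitin UBQ10 (LOC100252768) rose from 7164, 5714 and 6143 by 1.68 ± 0.10 at 6 h (limma adjusted p = 6.25e-07), and arginine decarboxylase ADC, which starts polyamine synthesis, from 4729.9, 5731 and 4321 by 1.34 ± 0.13 (adjusted p = 1.18e-05). The water channel TIP2;1, on a probe set with 4450.4, 3636 and 4848 in the control, was called higher at 12 h, by 1.38 ± 0.11, while its 6 h value of 1.00 ± 0.11 lay just under the 2-fold threshold and passed it in 4 of the settings tried, without control replicate 1 or 3, without replicate 2 of the 6 h arrays and with centred arrays.

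In other lists with bright members, the calls were mostly lower for auxin, clock and transport genes. Of 29 auxin probe sets, 18 were called lower at 6 h and 18 at 12 h, with 4 and 5 higher, and IAA16 changed by -3.44 ± 0.12 and -4.27 ± 0.12. Of 13 clock and light signalling probe sets, 8 and 9 were lower and 2 and 1 higher, the CONSTANS-like LOC100248114 by -3.46 ± 0.16 and -4.08 ± 0.16, while GIGANTEA changed by 1.97 ± 0.18 and 2.00 ± 0.18. Of 38 water channel and lipid transfer probe sets, 20 and 23 were lower and 3 and 6 higher. The ribosomal list had 3 of 219 called higher and 29 called lower at 6 h and 63 and 33 at 12 h, and the difference between the times was not tested.

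Dim probe sets could rise by large factors. All 12 stilbene synthase probe sets were called higher at both times, with median log2 changes of 8.05 and 7.85, and stilbene synthase 4 rose from 48.0, 56.7 and 31.5 to 13540.4 at 6 h and 8826 at 12 h on the mean of 3 arrays. WRKY1 (LOC100232957) had means of 368 at 6 h and 669 at 12 h (limma adjusted p = 9.00e-09 and 2.68e-09) and MYB14 of 709 and 909.6, and both were called higher. Their control signals lay below 11.7, the median of probe sets outside the annotation, so no size is given for their changes. For each, all treated arrays lay above all control arrays. Another MYB14 probe set gave 18.5, 13.2 and 16.7 in the control and means of 3295 at 6 h and 3380 at 12 h, and was also called higher. The stilbene synthase medians take in a probe set with a mean control signal of 11.1, also below 11.7. The 17.6 kDa heat shock protein had means of 98.4 at 6 h and 705 at 12 h. Of the dimmest 25% of all probe sets, 171 of 4109 were called higher at 6 h and 211 at 12 h. Over all 16436 probe sets, 1956 (11.9%) and 2410 (14.7%) were called higher, so the share was smaller among dim ones. The deposited annotation holds few dim probe sets, and a dim one can be listed because it was bright at 6 h or 12 h, so the rise of named dim genes is partly fixed by how they came to be named.

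For the variable probe sets the result depended on which control array was read. The 77 probe sets that were highest on replicate 1 had 6 h signals that exceeded replicate 1 by a median of only 0.25 on the log2 scale, but replicates 2 and 3 by 3.06 and 2.65, and at 12 h the medians were 0.0019, 2.56 and 2.31. Of the 77, 42 were called higher and 4 lower at 6 h, and 40 higher and 11 lower at 12 h. Without replicate 1 the counts called higher rose to 59 and 56, and without replicate 2 or replicate 3 they were 33 and 31. The AP2 domain factor changed by 1.93 ± 1.08 at 6 h and was not called (limma adjusted p = 0.168), and by 3.55 without replicate 1, when it was called. The calcium-binding protein (LOC100249271) changed by 1.93 ± 0.63 (adjusted p = 0.0258) and was called, but the call was lost without control replicate 2 (1.24) or 3 (1.74), without replicate 1 or 3 of the 6 h arrays (1.85 and 1.87) and in a fit of the control and 6 h arrays alone. The harpin-induced protein-like gene went to 10227, 11616 and 9445 at 6 h and 15546, 15996 and 14261 at 12 h, above every control array, and was called higher at both times (limma adjusted p = 3.17e-05 and 1.21e-05). ATAF1 also rose beyond replicate 1, to 8362, 9380.4 and 8546 at 6 h. The ethylene response factor 4-like gene had 1397, 1366 and 1835 at 6 h, all below replicate 1 of the control (3289) and above the other control arrays.

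Over all probe sets called at 6 h, replicate 1 lay a little closer to the irradiated leaves than the other control arrays did. Among the 1993 probe sets called higher at 6 h in the fit without replicate 1, that array exceeded the mean of the other two by a median of 0.12, and did so in 63.2% of them, against a median change of 1.89. Among the 2456 called lower it exceeded the others in 39.5%, by a median of -0.086. The same values for replicate 2 were 50.9% and 50.2%, and for replicate 3 42.7% and 46.2%. For calls at 12 h, replicate 1 exceeded the others in 54.6% of those higher and 48.3% of those lower. The values were 51.0% and 49.2% for replicate 2 and 52.4% and 43.7% for replicate 3, so at 12 h the lean was not particular to replicate 1. The total number of calls changed little, from 4367 to 4449 at 6 h and from 5291 to 5300 at 12 h without replicate 1.

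Of the 20 probe sets among the 100 most variable that were highest on replicate 3, 13 were called lower at 6 h and 14 at 12 h, and their high control signal on that array was part of how they were chosen. CHS fell to 229, 139.9 and 142 at 6 h and 132, 123 and 157 at 12 h, below every control array, changes of -3.19 ± 0.60 and -3.47 ± 0.60 (limma adjusted p = 0.00126 and 6.24e-04). F3H changed by -2.98 ± 0.47 and -2.38 ± 0.47, and LDOX by -3.43 ± 0.53 and -3.24 ± 0.53, all called lower. Chalcone isomerase CHI, the second step of the pathway, with 817, 1354 and 1788 in the control, rose by 3.33 ± 0.23 and 3.44 ± 0.23. A leucoanthocyanidin dioxygenase-like gene (LOC100264239), the dimmest of the list at 30.9, 29.1 and 21.4, rose by 6.24 ± 0.20 and 7.44 ± 0.20. In total 13 of 26 flavonoid probe sets were called lower and 6 higher at 6 h, and 12 lower and 5 higher at 12 h. Actin ACT1 changed by -0.16 ± 0.085 and -0.10 ± 0.085 and was not called.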

How the data were processed

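Grapevine leaf RNA of 9 samples was measured on Affymetrix arrays, 1 per sample. The deposited intensity values were made by the authors with RMA and are linear, and the log2 of each was taken here. Gene names come from the annotation columns of the authors' comparison tables, as gene title (769 probe sets), else the Arabidopsis similarity text (3362), else the sequence title (39). Their columns of SAM score, q-value and fold change were not used. Members and lists were chosen with earlier results of these data known, and 19 gene lists and 9 marker lists were drawn by word searches in those names, which take in some genes that only share a word.

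Probe sets were ranked by the mean of 3 log2 control signals. The text names, with 1 probe set per name, the 25 brightest, the 10 dimmest, the 25 largest and 10 smallest SDs (mean log2 of at least 6, or 8 for the smallest), the actin of the methods, the brightest, dimmest and most variable of each list and, among the 500 brightest, the 8 lowest and 8 highest changes; not all are printed, 1 gene among them is not reported here, and further list and marker members are named to describe a list.

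All 9 arrays were fitted as 3 groups with limma 3.58.1 in R 4.3.3, with Benjamini-Hochberg adjustment of p-values across the 16436 probe sets. P-values measure the spread between pools of leaves, and the number of arrays limits the precision. Tested on simulated data for 6 h, the fit recovered 0 of 50 probe sets changed by 1.5-fold, 42 of 50 changed by 2.5-fold and 49 of 50 changed by 4-fold, and called 1 of 16236 that were unchanged. The simulation drew normal noise and changed a far smaller share of probe sets than the 26.6% called at 6 h in the data. Its rates therefore need not hold for the data. Alternatives were the signal floor, the summary of signal and spread, array scaling, probe sets with suffixes, the limma settings and leaving out each array. Python 3.11.15 was used for the tables. Sequences of probes and genes were not used here.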

Additional observations from a re-analysis of the deposited data

Results flagged for a closer look

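For 16 bright named probe sets the change from the control at 12 h differed from that at 6 h by the limma test of 12 h against 6 h itself, with an adjusted p under 0.05 and at least 2-fold, and each was lower at 12 h. The differences, 12 h minus 6 h on the log2 scale, were -1.04 for ferredoxin (LOC100249080), -1.43 for the chlorophyll a/b-binding protein LOC100246867, -1.17 for DRT112, -1.36 for Lhca2, -1.83 for CP29, -1.61 for LHCA3 and -2.67 for LHCA1. For the oxygen-evolving proteins they were -1.88 for enhancer protein 3 and -1.12 for PSBP1, and PsbY had -1.53. Outside the photosystems they were -1.50 for GER6, -4.33 for lipid transfer protein LOC100233106, -1.99 for a leucine-rich repeat protein (LOC100241832), -1.98 for carbonate dehydratase (LOC100259742), -1.16 for the thaumatin-like LOC100247111 and -1.17 for the pathogenesis-related LOC100256515. Part of these probe sets were named because their change at 6 h or 12 h was among the 8 lowest of the 500 brightest. Lipid transfer protein LOC100233106 is an example. For those, a lower signal at 12 h than at 6 h is partly fixed by the choice. The share over all probe sets is not given, so the 16 are examples among bright probe sets and not a rate. Named probe sets outside the bright ones could go the other way by the same test. The 17.6 kDa heat shock protein had a difference of 2.84 and the branched-chain amino acid aminotransferase (LOC100247990) one of 3.53. Groups of 3 arrays were too small to look for single outlying arrays by a critical value.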

How the results depend on the processing

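Of the 100 brightest probe sets, 49 were still among the 100 brightest when the 1842 probe sets with suffix _s_at, _x_at or _a_at were left out, and 95 to 97 when 1 control array was. The 77 highest on replicate 1 among the 100 most variable became 73 to 80 under other measures of spread, floors and scalings. The 710 probe sets with an SD of at least 0.5 became 378 with a floor of 8 for the mean log2 signal, and 430 to 996 without 1 control array. The number of lists with a median above that of annotated probe sets was 14 to 15 without 1 array. Calls at 6 h were 4367 and became 8686 without the 2-fold threshold, and calls at 12 h went from 5291 to 9673. The balance of directions depended on the setting. Of all calls, 44.8% were higher at 6 h and 45.5% at 12 h, against 52.0% and 51.7% with each array centred on its median. Without the 2-fold threshold the shares were 43.9% and 51.1%. Leaving out 1 array gave 4238 to 4503 calls at 6 h and 5256 to 5309 at 12 h. Replicate numbers do not pair the samples, since deviations of same-numbered arrays correlated at -0.16 to 0.14 and 1 of 9 pairs was over 0.1, and with the replicate block 4358 and 5285 probe sets were called. For the named changes over all alternatives, 1337 checks at 6 h and 1316 at 12 h kept direction and call, 20 and 30 lost the call and 25 and 36 gained one. The medians of 24 of 95 list settings moved by more than the spread between arrays, and the cause was not tested.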

Other observations

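Photosystem probe sets could be parted by the genome that encodes the protein, a split made after the values were seen. The 8 probe sets of chloroplast-encoded proteins (PsaA and PsaB of photosystem I, and D2, CP43, PsbH and PsbK of photosystem II) had a median control signal of 4082, and the 37 of nuclear genes one of 12022. The P700 apoprotein A2 gave 9474, 9627 and 9707 on replicates 1, 2 and 3, the apoprotein A1 5746, 6544 and 5863, and CP43 4098, 3524 and 3755. None of the 8 was called at 6 h or 12 h by limma, with log2 changes of -0.041 to 0.32 at 6 h and -0.60 to 0.31 at 12 h. The D1 protein (LOC100264988), also encoded in the chloroplast, is not among the 8, since its name lacks the search words. Its brighter probe set had a mean control signal of 23250, above the highest of the 8 (9602). It changed by 0.11 ± 0.12 at both times and was not called. Of the 37 nuclear probe sets, 19 were called lower at 6 h and 34 at 12 h, with median changes of -1.01 and -2.66, and 1 was called higher at 12 h, an oxygen-evolving enhancer protein 1 (LOC100268005) at 362, 450.2 and 510.3 in the control. The difference between the groups of genes was not tested.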
